A study of Mus musculus with 2 samples.

Results

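The connexins Gja1, Gja4, Gja5, Gjb1, Gjb2 and Gjc1, which make the gap junctions of kidney vessels and tubules, were examined in kidneys with and without Cnnm2. They were taken by name, as all gene probes whose gene name is one of these 6 symbols, which gave 7 probes of the 39416 on the arrays and 6 of 31821 gene names. Of these names, 19707 were tested, meaning that at least 1 genotype gave a signal well above background on array 1 and again on array 2, and all 6 connexins were among them. Connexins are membrane proteins that join in rings to form channels between neighbouring cells, or open channels to the outside through which ATP can leave the cell. In the kidney they are known to couple endothelial cells, smooth muscle and the renin cells at the glomerular entrance, and to be present in the epithelium of several tubule segments.

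Knockout mice were Cnnm2fl/fl;Six2-Cre and control mice were Cnnm2+/+;Six2-Cre, all 2 months old, and both genotypes carried the Six2-Cre transgene. CNNM2 is a magnesium-handling membrane protein of the distal nephron. Six2-Cre is active in the progenitors of the nephron epithelium, so that vessels, interstitium and collecting ducts largely come from cells outside its lineage. Total RNA of dissected kidneys was hybridized on 2 two-colour arrays, with knockout in Cy5 and control in Cy3 on array 1 and the dyes exchanged on array 2. Neither the number of mice nor whether both arrays carried the same RNA was stated, and the arrays were assumed to repeat the labeling of the same RNA. Each genotype therefore counted as 1 replicate, the methods' t-test over the arrays was run for its counts alone and tests no spread between mice, and each SD is that of the 2 arrays, which then covers labeling and hybridization only. In whole-kidney RNA, fewer cells of a type and less RNA per cell cannot be told apart.

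Cnnm2, the deleted gene, was lower in knockout. Array 1 gave a log2 ratio of -2.88 for it, array 2 gave -2.46, and the mean was -2.67 ± 0.30 (SD, n = 2 arrays). All 8 proximal tubule markers, 6 of 6 podocyte markers and 10 of 10 endothelial markers were well above background in the dissected kidneys. Across the 19707 genes tested, the turned ratios of the arrays ran against each other (Pearson's r = -0.51, Spearman's rho = -0.56, taken across genes, which do not count as replicates). The direction of each ratio was taken from the dye labels. The mean over both arrays gives each dye equal weight, and an array contrast was taken as the ratio of array 1 minus that of array 2, divided by 2. With 1 array per dye orientation, dye and array cannot be told apart in it.

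The probes are shown because each connexin, apart from Gja5, rests on a single probe sequence. The first 30 of 60 bases are given 5′ to 3′, in lower case and as the array files list them.
Gja4, A_52_P117352: acccagcgccaagttgactttcgagcctcc
Gja5, A_52_P525317: ccgacactggcactaagactctctgttctg
Gja5, A_55_P2178753: caaataacagtgggcagttgaacagcagcc
Gja1, A_52_P174915: ctacacattaactcagaacttgtattctga
Gjc1, A_55_P2107362: gttgtgtcttccagatccagagaagaactg
Gjb1, A_55_P2096967: tccccagttcccaaggcccctctctctgca
Gjb2, A_52_P382886: caagttgaaccattaccactatgccttatg

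On the mm9 build, the probe positions in the files were chr4:126988848-126988907 on the minus strand for Gja4, chr3:96857349-96857408 on the plus strand for the Gja5 probe used, chr10:56109814-56109873 on the plus strand for Gja1, chr11:102661010-102661069 on the minus strand for Gjc1, chrX:98580902-98580961 on the plus strand for Gjb1 and chr14:57717629-57717688 on the minus strand for Gjb2. The probes differed in base composition, from 35% GC for Gja1 and Gjc1 to 55% for Gja4. The transcript accessions of all 6 genes matched the same symbols in the RefSeq table of GRCm38.p6. The other Gja5 probe lies at chr3:96836339-96836395, upstream of the one used, and its first 39 bases were found in the RefSeq promoter window of Gja5 from base 12 of the transcript on, which places them at the start of the first exon. The remaining probes had no match in the promoter windows, of which RefSeq gave 1 for 5 of the 6 genes, each with 250 bases before and 50 after the start.

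None of the connexins changed by the rule used here, a mean ratio of at least 2-fold with the same direction on both arrays. The count was 0 of 6, beside 118 of 19707 genes in all (0.599%), of which 62 were higher and 56 lower in knockout. The count over all genes depended on the treatment of the signal and was 15 with normexp correction and loess and 24 without background correction after loess, while that of the connexins was 0 in both. Gja5, the gene of endothelial and renin-cell connexin Cx40, was the member with the lowest mean and the only one of the 6 with the same direction on both arrays. That is 16.7% of the connexins against 27.7% of all genes tested, so that the connexins held no more such genes than the arrays as a whole. The median of the mean log2 ratios was -0.14 over the connexins and -0.01 over all genes, and it was -0.0058 over the connexins with normexp correction and loess. The connexins ranged from -0.77 to 0.14.

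By the size of the mean ratio from processed signals, the vascular connexins came before Gjb1 and Gjb2, but their probes were also the dimmer ones. The order did not hold with normexp correction and loess, where Gjb2 was at 0.099, Gja1 at 0.035 and Gjc1 at 0.018. Gja5 encodes Cx40, which joins endothelial cells of arteries and arterioles and couples the renin cells. Its processed signal, in arbitrary units, was 55.0 in knockout and 144 in control on array 1, and 94.9 in knockout and 105 in control on array 2. The knockout signal was below the control signal on each array, and the gap was wide on array 1 and narrow on array 2. Signals were not scaled between the arrays, so levels were compared within an array. The log2 ratios were -1.39 and -0.15, with a mean of -0.77 ± 0.87 (SD, n = 2 arrays), or a signal 1.71-fold higher in control than in knockout. The SD was larger than the mean itself, so the difference did not exceed the spread between the arrays. The mean lay at percentile 0.7003 of all genes tested and below the range from -0.31 to 0.29 that held the 5th to 95th percentile of genes of similar signal, with all genes split into 4 equal groups by mean signal. The other 5 connexins lay inside the range of their own group.

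The upstream Gja5 probe gave no measure of this difference, since it was not well above background in any channel. Its signals were 3.94 in knockout and 10.02 in control on array 1, and 6.14 and 2.98 on array 2, which gave log2 ratios of opposite sign (-1.35 and 1.04). A further probe, A_55_P2178748, is described on the array as Cx40 but carries a transcript name in place of the gene symbol, and was left outside the count. It lies at chr3:96881280-96881339, beyond the Gja5 probe used. Its signals were 31.2 in knockout and 17.1 in control on array 1, where the control was not well above background, and 26.7 and 28.6 on array 2. These gave log2 ratios of 0.87 and -0.10, a mean of 0.38 ± 0.69, and thus no lower signal in knockout on array 1. The lower Gja5 signal in knockout therefore rested on a single probe.

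Gja4 encodes Cx37, the partner of Cx40 in arterial endothelium, which is also reported in renin cells, mesangial cells and the distal convoluted tubule. Its signal was 258 in knockout and 385 in control on array 1, and 261 and 252 on array 2. The knockout signals were nearly equal on both arrays, while 1 of the control signals was above them and the other below. The log2 ratios of -0.58 and 0.05 gave a mean of -0.26 ± 0.45, at percentile 7.07.

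Gja1 encodes Cx43, the most widely distributed connexin, found in endothelium, smooth muscle and glomerular cells. Its signal was close to the lower limit of the arrays, at 33.2 in knockout and 19.004 in control on array 1 and 21.0 and 30.3 on array 2. The genotype with the higher signal was thus the one labeled with Cy5 on each array, and the genotypes overlapped. The log2 ratios of 0.80 and -0.53 gave a mean of 0.14 ± 0.94.

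The Gja1 probe was printed 10 times on each array, which allowed the error of a spot to be set beside the gap between arrays. On array 1, the 10 spots had log2 ratios from 0.61 to 1.19 with a median of 0.73, and knockout was higher in 10 of 10. On array 2, 1 spot was marked by the scanner software and left out, and the other 9 ranged from -0.77 to -0.39 with a median of -0.49, with knockout lower in 9 of 9. Knockout signals of single spots (29.6 to 37.0) were all above control signals (14.6 to 24.2) on array 1, and on array 2 they were all below (18.05 to 24.5 against 26.2 to 33.0). The SD over spots was 0.20 and 0.15, against a median of 0.050 and 0.047 over the 399 probes printed 10 times. The spread between spots was therefore much smaller than the gap between the arrays, and spots of an array repeat the same labeling and are not replicates of a genotype.

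**Figure D1:**
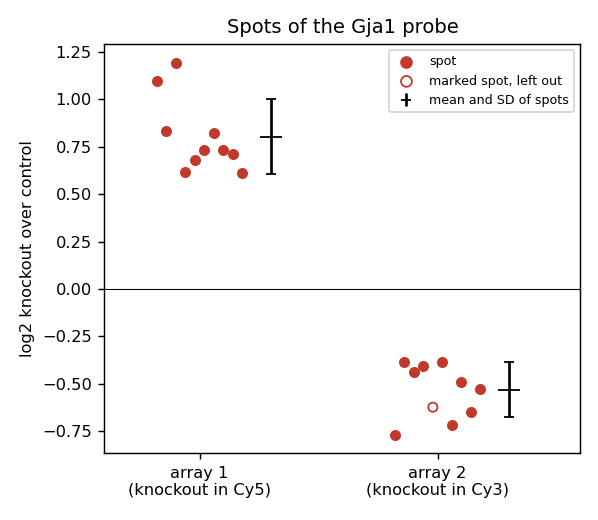
The log2 ratio of knockout over control is plotted for each printed spot of the Gja1 probe on array 1 (knockout in Cy5) and array 2 (knockout in Cy3), with the mean and SD of the spots kept and the marked spot as an open circle. All 10 spots of array 1 lie above 0 and all 9 kept spots of array 2 lie below it.

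Gjc1 encodes Cx45, which is found in vascular smooth muscle and mesangial cells. Its signal was 192 in knockout and 133 in control on array 1, and 98.4 and 195 on array 2. The genotype labeled with Cy5 again had the higher signal on each array. The log2 ratios of 0.53 and -0.99 gave a mean of -0.23 ± 1.07, the largest SD among the 6 probes used.

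Gjb1 and Gjb2 were grouped here as the tubular connexins, though Cx37 is also reported in the distal convoluted tubule. Gjb1 encodes Cx32, the main connexin of liver, which is also present in proximal tubule. Its signal was 10776 in knockout and 10118 in control on array 1, and 7607 and 8721 on array 2. The genotypes overlapped, the log2 ratios were 0.09 and -0.20, and the mean of -0.05 ± 0.20 had the smallest SD of the 6. Gjb2 encodes Cx26, a partner of Cx32 in epithelia that is best known for its role in the inner ear. Its signal was 11358 in knockout and 7884 in control on array 1, and 8227 and 10524 on array 2. The log2 ratios of 0.53 and -0.36 gave a mean of 0.09 ± 0.62, and the genotypes overlapped here as well.

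**Figure D2:**
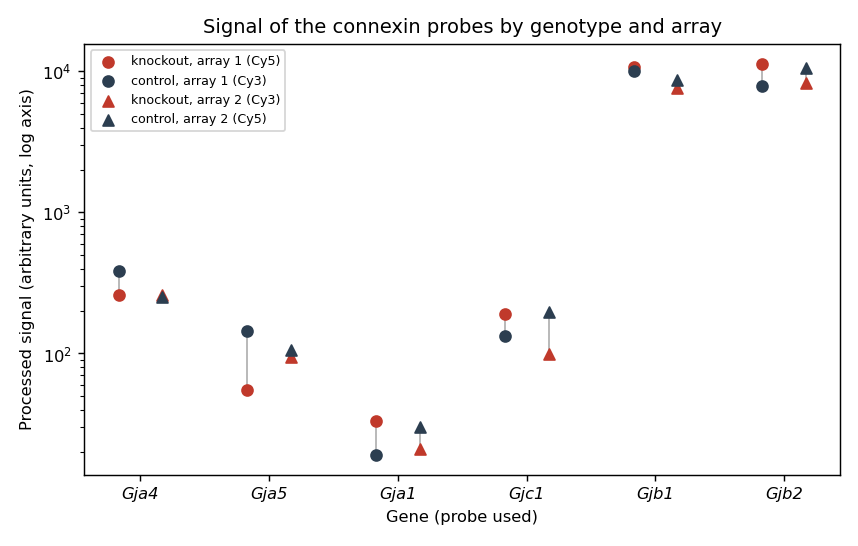
The processed signal (arbitrary units, log axis) of the probe used for each connexin is plotted by genotype and array, with a grey line joining knockout and control of the same array. The knockout signal lies below the control signal on each array for Gja5, and the direction differs between the arrays for the other 5 genes. Levels of different probes are not comparable, and signals were not scaled between the arrays.

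The ratios of 5 of the 6 connexins had opposite signs on the arrays, on which the dyes were exchanged. The Cy5-labeled RNA gave the higher signal on both arrays for Gja1, Gjc1, Gjb1 and Gjb2, and the Cy3-labeled RNA did so for Gja4. The array contrast was 0.67 for Gja1, 0.76 for Gjc1, 0.14 for Gjb1, 0.44 for Gjb2 and -0.31 for Gja4. For each of these genes it was larger in size than the mean ratio. For Gja5 the contrast was -0.62, close to the size of its mean. An array contrast above the mean in size was common on these arrays, in 72.3% of all genes tested. Its SD over all genes was 0.40, against 0.23 for the mean ratio.

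**Figure D3:**
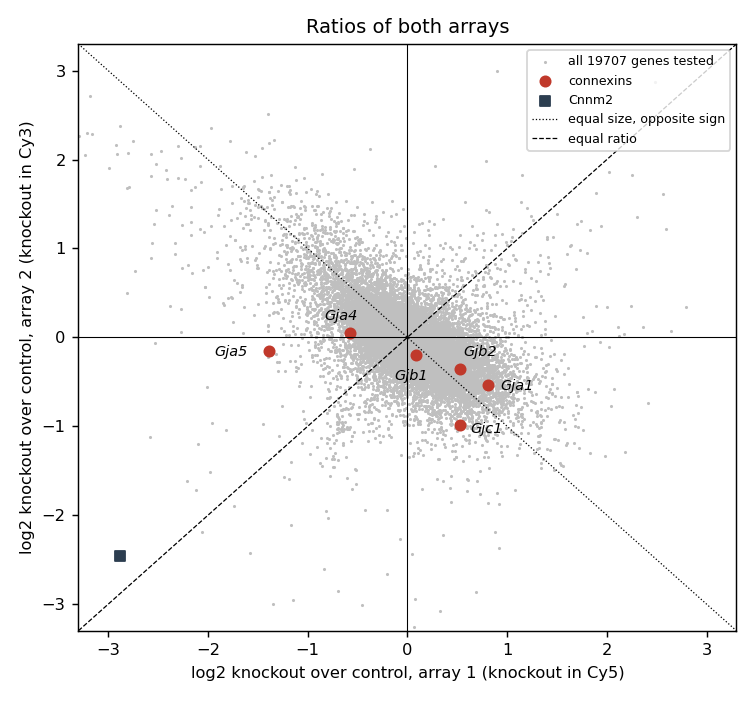
The log2 ratio of knockout over control on array 2 is plotted against that on array 1 for all 19707 genes tested (grey), the 6 connexins (red) and Cnnm2 (square), with axes limited to 3.3 in size, which leaves out 16 genes. Cnnm2 lies near the dashed line of equal ratios, whereas Gja1, Gjb1, Gjb2, Gjc1 and Gja4 lie in the quadrants of opposite sign and Gja5 lies at -1.39 and -0.15.

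Other treatments of the signal kept the mean of Gja5 below 0 but made it smaller. It was -0.77 from processed signals, -0.74 from background-subtracted signals centred on the median, -0.50 from signals without background correction after loess, and -0.29 with normexp correction and loess, and in each of these both arrays were below 0. Gja4 kept a mean below 0, from -0.26 to -0.15. The mean of Gjc1 turned from -0.23 to 0.02 with normexp correction and loess. The means of Gja1 (0.03 to 0.17) and Gjb2 (0.07 to 0.10) were above 0 and those of Gjb1 (-0.05 to -0.03) below 0 in every treatment in which both arrays were used, all within the SD of the arrays.

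**Figure D4:**
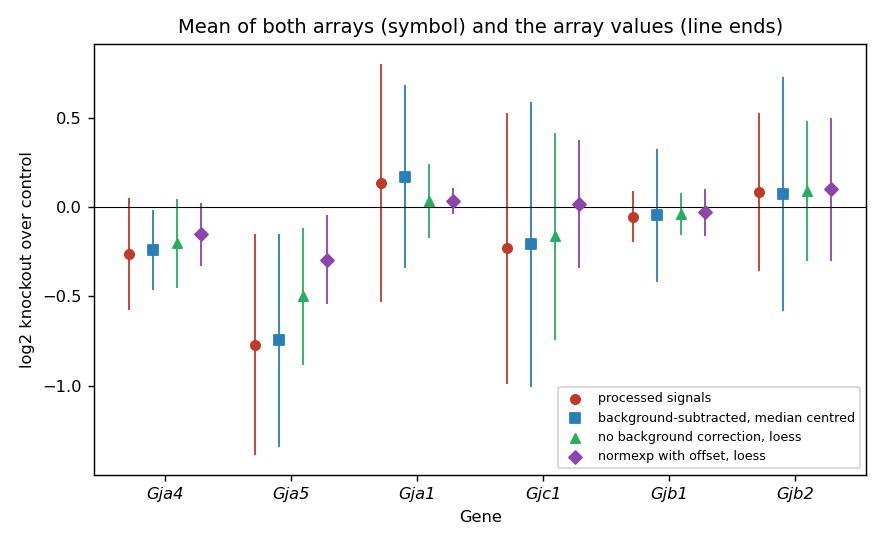
For each connexin, the mean log2 ratio of knockout over control (symbol) and the values of the 2 arrays (line ends) are plotted under 4 treatments of the signal. The lines of Gja5 lie wholly below 0 under all 4, while those of Gja1, Gjc1, Gjb1 and Gjb2 cross 0 under all 4.

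By the methods' t-test, which asks for p below 0.1 over the arrays and a mean change above 2-fold, 0 of the 6 connexins and 36 of 19707 genes (0.183%) were called. None of the connexins had an unadjusted p below 0.05, which 486 of all genes had, and 0 genes were called after Benjamini-Hochberg adjustment. With 2 arrays this test treats repeated labelings as replicates.

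The rest of the gap junction family gave few measurable signals. Of 14 other connexins, 9 were not well above background, and 0 of the 5 tested changed. The median of the 5 was 0.19, and 3 had the same direction on both arrays, all with higher values in knockout. Gjb6 encodes Cx30, an epithelial connexin of the distal nephron. Its signal was 23.7 in knockout and 10.01 in control on array 1, and 13.7 and 8.62 on array 2, and the control was well above background on 1 of the 2 arrays. The log2 ratios were 1.24 and 0.67, with a mean of 0.96 ± 0.40 that fell to 0.10 with normexp correction and loess. Panx1, the pannexin that releases ATP, was the 1 of 3 pannexins tested and had a mean of -0.01.

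Genes of proteins that anchor or regulate gap junctions had mean ratios near 0, while single arrays could lie further off. Of 14 junction partners 13 were tested, 0 changed, 2 had the same direction on both arrays, and the median was -0.03 with a range from -0.22 to 0.13. Tjp1, the scaffold protein ZO-1 that binds Cx43, had log2 ratios of 0.31 and -0.65. Cav1, the caveolin of endothelial cells, had -1.13 and 0.68. Of 14 genes of ATP and adenosine signaling, the route by which connexin channels can act on neighbouring cells, 12 were tested and 0 changed, with 1 higher and 3 lower on both arrays and a median of -0.06. Among them Entpd1, an ATP-degrading enzyme of vessels, had -0.62 and -0.18, and Entpd2, a related enzyme, had 0.11 and 0.32.

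Markers of the cells that carry the vascular connexins were measured beside them. Of 10 endothelial genes 10 were tested and 0 changed. On both arrays 2 were higher and 3 were lower in knockout, and the median of the mean ratios was -0.07. The lower ones were Cdh5, the cadherin of endothelial junctions, with -0.58 and -0.11, and the receptors Flt1, with -0.78 and -0.02, and Kdr, with -0.35 and -0.07. The higher ones were Emcn, a surface protein of capillaries and veins, with 0.10 and 0.02, and Vwf, a clotting protein, with 0.31 and 0.0046. The other 5 had opposite signs on the arrays, with Pecam1 at -0.88 and 0.85, Tek at -0.77 and 0.60, Tie1 at -0.55 and 0.20, Eng at -0.49 and 0.37 and Esam at 0.55 and -0.33. The summed endothelial level on the log2 scale was 13.67 in knockout and 14.07 in control on array 1, and 13.69 and 13.67 on array 2. All 6 arterial markers were tested, 0 changed, 1 was higher and 2 were lower on both arrays, and their median was -0.14. Their summed level was 10.436 and 10.5045 on array 1 and 10.18 and 10.42 on array 2 for knockout and control. The part of these cell types in the Gja5 value was not tested.

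Smooth muscle, renin-cell and mesangial markers varied with the arrays. Of 8 smooth muscle genes 7 were tested, 0 changed, 1 was higher on both arrays and the median was -0.16. Among the 8 genes of renin cells and mesangium 0 changed, 2 were lower on both arrays and the median was -0.14. Ren1, which encodes renin, had a signal of 275 in knockout and 552 in control on array 1, and 425 and 394 on array 2. Its log2 ratios were -1.004 and 0.11, with a mean of -0.45 ± 0.79, so that it was lower in knockout on array 1 and not on array 2. Akr1b7, an enzyme of renin cells, had -0.15 and -0.88, and Notch3, the other gene lower on both arrays, had -0.33 and -0.41. The summed level of this list was 12.28 in both genotypes on array 1, and 12.01 in knockout and 12.27 in control on array 2.

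The tubular connexins were set beside markers of the segments. Among the 8 proximal tubule genes 0 changed, 1 was higher and 1 lower on both arrays, and the median was -0.02. The log2 ratio of their summed level reached 0.23 on array 1 and -0.12 on array 2. Gjb1 and Gjb2 had the same signs, but so did Gja1 and Gjc1. The summed levels of junction partners, intercalated cells and leukocytes had these signs too, and those of endothelium, smooth muscle and principal cells had the reverse. The signs were thus not particular to the proximal tubule. The genes that changed in these lists were 3 of the 6 of the distal convoluted tubule, where CNNM2 is known to be present. Pvalb, which encodes a calcium-binding protein, fell by 1.75 on the log2 scale, Trpm6, a magnesium channel, fell by 1.40, and Calb1, another calcium-binding protein, fell by 1.01. With normexp correction and loess Pvalb was at -1.53, while Trpm6 at -0.98 and Calb1 at -0.94 no longer reached 2-fold. All 6 genes of this list had means below 0, with a median of -0.67, against a median of -0.01 over all genes. On both arrays 4 of the 6 were lower, beside 27.7% of all genes with the same direction on both arrays in either direction. The original study had already listed Pvalb and Trpm6 as lower in these data, and the list was chosen with earlier results known. Its median and counts are therefore no independent support. Slc12a3, at -0.78 and 0.19, and Klhl3, at -0.91 and 0.28, had opposite signs.

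**Figure D5:**
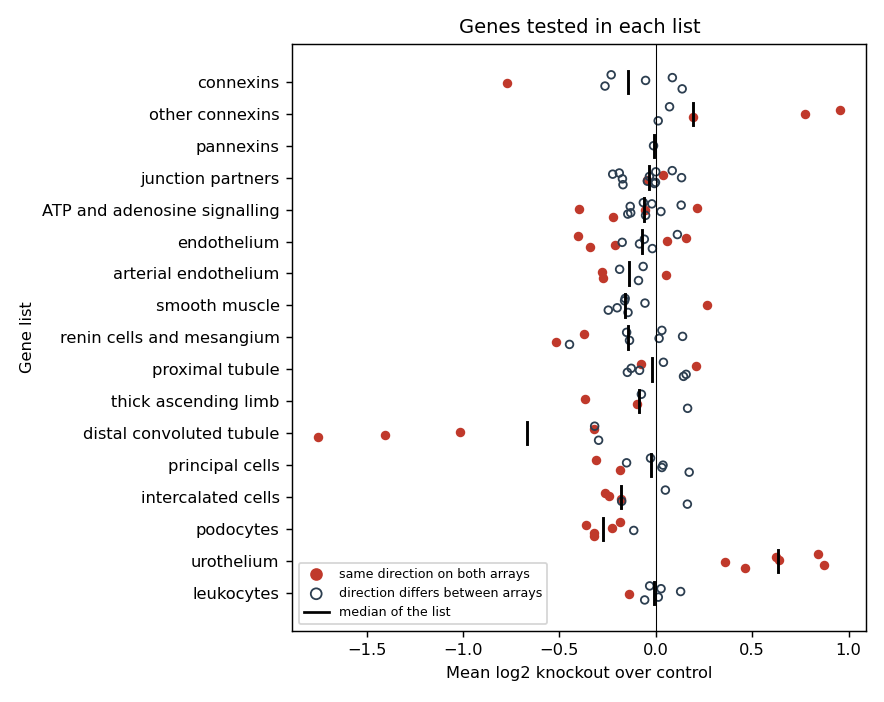
The mean log2 ratio of knockout over control over both arrays is plotted for each tested gene of 17 lists, filled where the direction was the same on both arrays and open where it differed, with a bar at the median of each list. The connexins have a median of -0.14 with Gja5 at -0.77, the distal convoluted tubule genes reach -1.75 and the 6 urothelial genes all lie above 0.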

How the data were processed

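The authors deposited signal intensity from Agilent Feature Extraction for both arrays (version 10.7.3.1 per the file headers, 10.5.1.1 in the submitters' processing notes). In the processed signals, the software had removed the background and balanced the dyes of an array. Log10 ratios were deposited as well, and a value table within 0.00492 of the scanner's log10 ratio on each array, with a median of 0, whose direction was knockout over control. Each array held 43020 gene spots, of which 141 and 175 marked as outliers were left out and 0 were saturated. Between 62.6% and 68.0% of spots were well above background per channel, and the number of arrays limits precision.

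Spots of a probe were averaged on the log2 scale. A gene was represented by its probe with the highest mean signal, and ratios were turned by the dye labels and averaged over the arrays. All 6 connexins, members of reported lists and Cnnm2 were named, apart from some list members that are not reported here. The connexins and the 17 gene lists were chosen with earlier results of these data known. The methods' t-test (paired, two-sided) was run as an alternative, beside other background corrections and normalizations, limits on dim probes, marked spots kept, the median over probes, single arrays and the contrast of the arrays. The counting rules were tested on simulated data in which the dye effect cancelled in the mean. The simulated noise was smaller than the spread of the mean ratio in the data (SD 0.23 over all genes). That test therefore could not show how often the rules make false calls on these arrays. Python 3.11.15, numpy 2.4.6, pandas 2.3.3, scipy 1.17.1, matplotlib 3.10.9, R 4.3.3 and limma 3.58.1 were used.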

Additional observations from a re-analysis of the deposited data

How the results depend on the processing

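The count of connexins changed at least 2-fold was 0 in 14 of 15 alternatives, and 0 to 1 on single arrays, where Gja5 passed on array 1 alone. Of all genes, 1730 of 21547 passed on array 1 alone and 1458 of 21318 on array 2 alone. The count with the same direction on both arrays was 1, and became 2 with background-subtracted, median-centred signals, where Gja4 joined Gja5 (-0.46 and -0.02), 0 with the probes of each gene summarised by their median, and 5 in the contrast of the arrays. The contrast counts genes of opposite sign on the arrays, whose contrast exceeds the mean in size, as held for 72.3% of all genes tested. The median of the connexins was -0.14, and it was 0.31 on array 1 alone, -0.28 on array 2 alone, -0.0058 with normexp correction and loess and 0.29 in the contrast of the arrays. The count of other gap junction genes changed was 0, and became 1 with background-subtracted signals, where Gjb6 reached 1.03. On single arrays it was 4 on array 1, with Gjb6, Gjc3 and Cav1 among them, and 1 on array 2 (Gjc3), and Gjc3 had opposite signs. These counts stand beside the 1730 and 1458 genes in all on array 1 and array 2. The cause of these moves was not tested. Both arrays come from 1 slide, so slide could not be fitted as a batch. The low signal of Gja1 limits its ratio.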

Other observations

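The urothelial list was measured as another cell type that a dissected kidney can hold. On each array 6 of its 6 genes were above 0, beside 27.7% of all genes with the same direction on both arrays in either direction, and 0 passed the rule of at least 2-fold. The median of the mean log2 ratios was 0.63 with a range from 0.36 to 0.87, and the log2 ratio of the summed level reached 0.49 on array 1 and 0.58 on array 2. Upk1b, a uroplakin of the urothelial plaque, had a mean of 0.87, and Krt5, a keratin of basal cells, had 0.62. With normexp correction and loess, Upk1b was at 0.23, Krt20 at 0.22, Upk2 at 0.17 and Krt5 at 0.35. Of the podocyte genes 5 of 6 were lower on both arrays, with a median of -0.27 and 0 past the rule.

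The remaining lists held 0 changed genes. Their medians were -0.09 over 4 tested genes of the thick ascending limb, -0.03 over 7 genes of principal cells, -0.18 over 6 genes of intercalated cells and -0.01 over 6 genes of leukocytes.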
